A study of Mus musculus with 16 samples.

Results

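Immune and erythroid miRNAs were followed in the LV wall, 10 of the 1881 mature mouse miRNAs on the arrays, picked by name. They were miRNAs of microglia and other immune cells (mmu-miR-142a-3p, mmu-miR-142a-5p, mmu-miR-223-3p, mmu-miR-146a-5p, mmu-miR-146b-5p, mmu-miR-155-5p, mmu-miR-150-5p and mmu-miR-21a-5p) and the erythroid pair mmu-miR-451a and mmu-miR-144-3p. The LV wall is the tissue along the lateral ventricle of the brain, with ciliated ependymal cells on its surface, and was taken from male mice 8 months old. The groups were 8 WT mice and 8 Dgcr8+/- littermates, which carry 1 disrupted copy of Dgcr8 in every cell, with 1 mouse per 1-colour array and mice called biological replicates by the labels. The question was whether these miRNAs differed between the genotypes and how much the erythroid signal varied from mouse to mouse. That signal was used as a stand-in for blood left in the dissected tissue, which was not itself measured. The amount of blood and the miRNA per red blood cell cannot be told apart in it. Whether blood was flushed out before RNA extraction is not given in the sources used here.

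Dgcr8 is the RNA-binding partner of Drosha in the nuclear complex that cuts most miRNA hairpins out of their primary transcripts. Dicer then cuts the hairpin in the cytoplasm, except that of miR-451a, whose short stem is cut by Ago2 after the Dgcr8 step. MiR-142 is restricted to cells of blood origin, which in brain tissue are mainly microglia, miR-223 marks the myeloid line and above all neutrophils, and miR-150 marks mature lymphocytes. MiR-146a, miR-146b and miR-155 are induced through inflammatory signalling, and miR-21 is expressed by glia, vessel cells and immune cells alike. MiR-144 and miR-451a are cut from a single transcript and make up much of the miRNA of red blood cells.

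The mature sequences below, from RefSeq on GRCm38.p6, show which of the 10 share a seed, the bases 2 to 8 that pair with targets and are printed in capitals. The table used held 9 of the 10. The lines give, 5′ to 3′, the products of the Mir142 hairpin, the 3 miRNAs of inflammatory signalling, the remaining immune miRNAs and the erythroid pair.
miR-142a-5p (chr11:87756867-87756887, plus strand): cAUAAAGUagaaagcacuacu
miR-142a-3p (chr11:87756903-87756925, plus strand): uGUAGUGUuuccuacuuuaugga
miR-146a-5p (chr11:43374435-43374456, minus strand): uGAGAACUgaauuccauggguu
miR-146b-5p (chr19:46342790-46342811, plus strand): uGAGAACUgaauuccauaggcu
miR-155-5p (chr16:84714143-84714165, plus strand): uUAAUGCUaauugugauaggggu
miR-223-3p (chrX:96242884-96242905, plus strand): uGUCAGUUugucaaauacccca
miR-21a-5p (chr11:86584120-86584141, minus strand): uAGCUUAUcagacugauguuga
miR-144-3p (chr11:78073047-78073066, plus strand): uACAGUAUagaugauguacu
miR-451a (chr11:78073186-78073207, plus strand): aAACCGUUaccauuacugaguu

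MiR-146a-5p and miR-146b-5p have the same seed and are identical at 20 of 22 bases. They differ by G18A and U21C, with miR-146a-5p given first and positions counted from the 5′ end, so a probe for one can also capture the other. The remaining sequences each have a seed of their own, which makes 8 distinct seeds. Of these 9, 6 lie on chromosome 11, and 99 bases separate the hairpins of Mir144 and Mir451a.

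Signals are given as the log2 of the quantile-normalized signal intensity, and every difference is Dgcr8+/- minus WT on that scale. Arrays of WT mice had 495 to 540 detected miRNAs and those of Dgcr8+/- mice 467 to 492, and 495 miRNAs detected on at least 8 of the 16 arrays were tested. Slide 1 held 6 WT and 2 Dgcr8+/- arrays and slide 2 held 2 WT and 6 Dgcr8+/- arrays. Dgcr8+/- replicate 2 had the weakest hybridisation spike-ins of all arrays, 13.1 on the log2 scale, and WT replicate 6 had the strongest, 15.4. Dgcr8 mRNA is not measured by a miRNA array, so the genotype labels were not checked against it. The 3 ciliated-cell miRNAs looked at, miR-449a-5p, miR-34b-5p and miR-34c-5p, were detected on all 16 arrays.

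Of the 10 miRNAs, 9 were tested and miR-155-5p was not. MiR-142a-5p was lower in Dgcr8+/- mice, miR-150-5p was higher, and the other 7 did not pass an adjusted p of 0.05 (limma with Benjamini-Hochberg adjustment over the 495 miRNAs). Over all tested miRNAs, 27.9% were lower, 28.3% were higher and 56.2% passed in either direction, against 22.2% of the 9. The median difference of the 9 was −0.12, and that of all tested miRNAs was 0.037 with quartiles of −0.27 and 0.27. In size, the 9 differences had a median of 0.12, whereas the median of all tested miRNAs was 0.27. For each of the 9, mice of the 2 genotypes overlapped, and the share of all 495 tested miRNAs that did so is not given here.

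**Figure D1:**
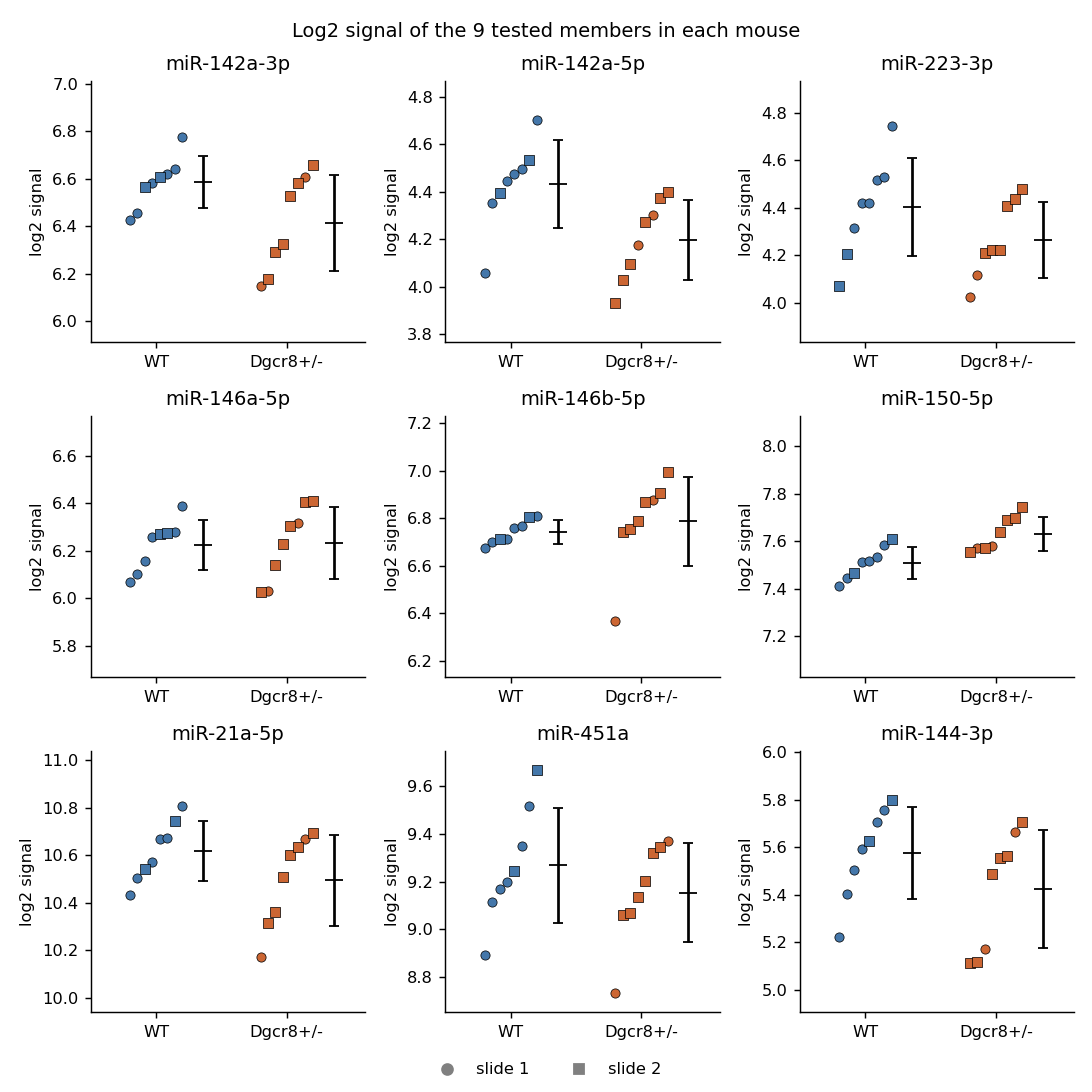
Log2 signal after quantile normalization (y axes, each spanning 1.1 log2 units) of the 9 tested miRNAs in 8 WT and 8 Dgcr8+/- mice, ordered by value, with 1 point per mouse, circles for slide 1, squares for slide 2 and bars for mean ± SD. In every panel the mice of both genotypes overlap, and Dgcr8+/- replicate 2 sits alone at 6.37 for miR-146b-5p.

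Both products of the Mir142 hairpin had lower means in Dgcr8+/- mice, and the call was made for the 5p product. The signal of mmu-miR-142a-5p was 4.06, 4.46 and 4.70 (lowest, median and highest) in WT mice and 3.93, 4.22 and 4.40 in Dgcr8+/- mice. Below the lowest WT mouse lay 2 Dgcr8+/- mice, and WT replicate 6 lay within the lower part of the Dgcr8+/- range. Its mean was 4.43 ± 0.18 (SD, n = 8) in WT and 4.20 ± 0.17 (SD, n = 8) in Dgcr8+/- mice, a difference of −0.23 (SE 0.086, 95% interval −0.42 to −0.054, adjusted p = 0.0270 from limma). The 2-sided exact permutation test gave p = 0.0197. In bulk tissue, fewer cells of a type and less of the miRNA per cell cannot be told apart.

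The 2 probes for miR-142a-5p gave the same difference, −0.23 each, and it was −0.18 on slide 1 and −0.28 on slide 2. Taking the slide as a block, the difference stayed at −0.23 but the adjusted p was 0.0604 from limma. Leaving out WT replicate 4, WT replicate 7, Dgcr8+/- replicate 3 or Dgcr8+/- replicate 8 also ended the call, with adjusted p = 0.0569, 0.0510, 0.0541 and 0.0562 from limma, respectively. The call was also lost with arrays scaled to the 75th percentile of probes detected throughout (−0.075, adjusted p = 0.456 from limma) and with a normexp background correction (−0.051, adjusted p = 0.0652 from limma). It was lost as well with outlier-marked spots kept (−0.19, adjusted p = 0.0958 from limma) and with no filter on dim miRNAs (adjusted p = 0.0506 from limma). Over 18 alternative settings the difference stayed below 0, from −0.61 to −0.051, and it passed in 13.

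The signals of mmu-miR-142a-3p were 6.43, 6.59 and 6.78 in WT mice and 6.15, 6.43 and 6.66 in Dgcr8+/- mice, with 4 Dgcr8+/- mice below every WT mouse. Its mean was 6.58 ± 0.11 (SD, n = 8) in WT and 6.41 ± 0.20 (SD, n = 8) in Dgcr8+/- mice. The difference of −0.17 (SE 0.080, 95% interval −0.34 to −0.0013) did not pass after adjustment (adjusted p = 0.0754 from limma; exact permutation test, p = 0.0564). Without Dgcr8+/- replicate 4 or without Dgcr8+/- replicate 5 it passed, with adjusted p = 0.0353 and 0.0470 from limma. It was −0.21 on slide 1 and −0.16 on slide 2. Across the 16 mice the deviations of the 5p and 3p products from their genotype means had a correlation of 0.79, given as a description over 2 products of 1 hairpin on the same arrays. The difference between the 5p and the 3p signal within each array was −2.15 ± 0.11 (SD, n = 8) in WT and −2.22 ± 0.11 (SD, n = 8) in Dgcr8+/- mice. The exact permutation test did not separate these means (p = 0.256).

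The neutrophil miRNA mmu-miR-223-3p did not pass. WT mice were at 4.07, 4.42 and 4.74 (lowest, median and highest), and Dgcr8+/- mice at 4.02, 4.22 and 4.48. The difference was −0.14 (SE 0.089, 95% interval −0.33 to 0.052, adjusted p = 0.194 from limma; exact permutation test, p = 0.161). It was −0.42 on slide 1 and 0.19 on slide 2, and −0.0050 for one probe and −0.24 for the other, so the slides gave opposite signs and the probes different sizes.

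Among the miRNAs of inflammatory signalling, miR-155-5p was close to background. For mmu-miR-155-5p the software made a detection on 1 of 8 WT and 1 of 8 Dgcr8+/- arrays, and the signal was not well above background on the other 14, so no levels were compared. The signal of mmu-miR-146a-5p was 6.07, 6.27 and 6.39 in WT mice and 6.03, 6.27 and 6.41 in Dgcr8+/- mice. Its mean was 6.23 ± 0.11 (SD, n = 8) in WT and 6.23 ± 0.15 (SD, n = 8) in Dgcr8+/- mice, a difference of 0.0074 with a 95% interval from −0.13 to 0.15 (adjusted p = 0.934 from limma). On the separate slides it was slightly below 0, −0.036 and −0.021.

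The signal of mmu-miR-146b-5p lay within a narrow range in WT mice, at 6.68, 6.74 and 6.81. In Dgcr8+/- mice it was at 6.37, 6.83 and 6.99, and the lowest value was that of replicate 2. Above every WT mouse lay 4 Dgcr8+/- mice and below every WT mouse lay 1. The difference was 0.044 (SE 0.069, 95% interval −0.10 to 0.19, adjusted p = 0.607 from limma; exact permutation test, p = 0.590). Without Dgcr8+/- replicate 2 it was 0.10 and passed (adjusted p = 0.0307 from limma), so that 1 array decided this call. The difference was −0.11 on slide 1 and 0.082 on slide 2, and a fit that took the slide as a block gave −0.016.

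The signal of mmu-miR-21a-5p was 10.43, 10.62 and 10.81 in WT mice and 10.17, 10.56 and 10.69 in Dgcr8+/- mice. Below every WT mouse lay 3 Dgcr8+/- mice, and the others overlapped. Its difference of −0.12 (SE 0.079, 95% interval −0.29 to 0.043) did not pass (adjusted p = 0.187 from limma; exact permutation test, p = 0.148), and the 2 probes gave −0.12 and −0.13. It was −0.19 on slide 1 and −0.12 on slide 2.

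The lymphocyte miRNA mmu-miR-150-5p was the only one of the 9 called higher in Dgcr8+/- mice under quantile normalization. Its signal was 7.41, 7.51 and 7.61 in WT mice and 7.56, 7.61 and 7.74 in Dgcr8+/- mice, and 4 Dgcr8+/- mice were above every WT mouse. Its mean was 7.51 ± 0.067 (SD, n = 8) in WT and 7.63 ± 0.072 (SD, n = 8) in Dgcr8+/- mice, a difference of 0.12 (SE 0.042, 95% interval 0.032 to 0.21, adjusted p = 0.0217 from limma; exact permutation test, p = 0.00404). The difference was 0.075 on slide 1 and 0.11 on slide 2, and taking the slide as a block it was 0.094 and did not pass (adjusted p = 0.109 from limma). Its 2 probes gave 0.14 and 0.11. The call was kept with each of the 16 arrays left out in turn, with a highest adjusted p of 0.0458 from limma. Cyclic loess (0.071, adjusted p = 0.154 from limma) and the deposited table of total signal (0.096, adjusted p = 0.0762 from limma) ended it with the sign unchanged. The other miRNA of the lymphocyte list, miR-342-3p, which is also one of microglia and neurons, went the opposite way, as given below.

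The direction of miR-150-5p depended on the scaling. It was −0.39 with no normalization between arrays, −0.38 with the labelling spike-ins as the scale and −0.030 with the 75th percentile of all probes. Under those settings the median of all 495 tested miRNAs moved as well, to −0.39, −0.38 and −0.029, and miR-150-5p minus that median was −0.0013 in each. With the 75th percentile of probes detected throughout, miR-150-5p was 0.14 and passed (adjusted p = 0.00736 from limma). The median of all tested miRNAs was also 0.14 there, and miR-150-5p minus that median was again −0.0013. In each of these settings miR-142a-5p minus the median was −0.22, and all 9 members lay below the median of all tested miRNAs. With no normalization and with the spike-ins all 9 members passed as lower, as did 293 and 261 of the 495, respectively.

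**Figure D2:**
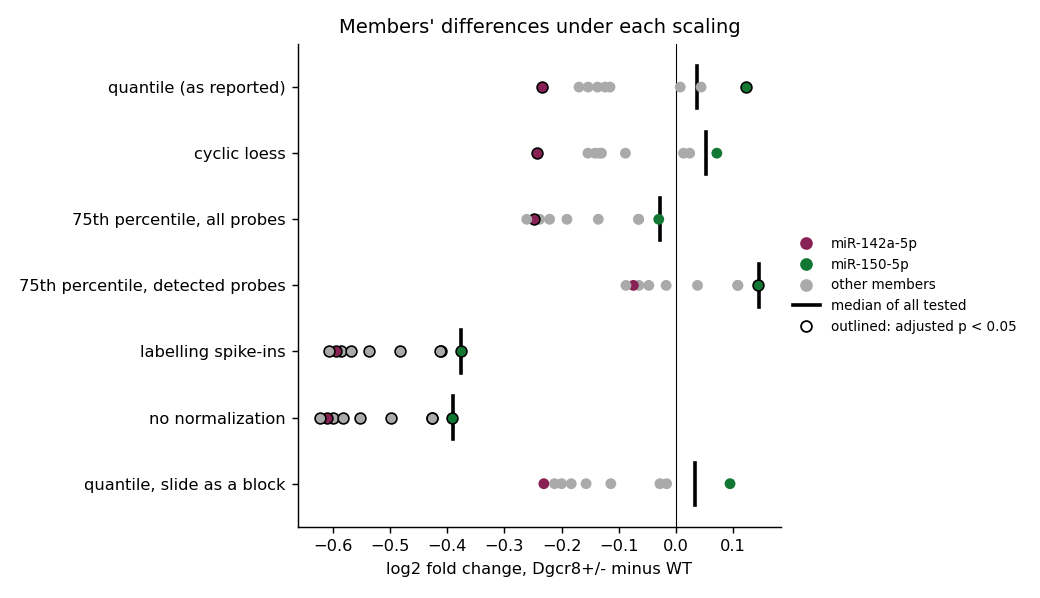
Log2 fold change of each tested member, Dgcr8+/- minus WT (x axis), under 7 settings (y axis), with the black bar as the median of all 495 tested miRNAs and outlined points past an adjusted p of 0.05 from limma. MiR-142a-5p stays left of the black bar in every row, whereas miR-150-5p is right of it under quantile normalization and cyclic loess, sits on it under the simple scalings and falls below 0 in 3 rows.

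MiR-150-5p also changed sign when spots marked as outliers by the software were kept. On WT replicate 1 its signal then became 12.30 instead of 7.45, no other array moved by more than 0.23, and the difference was −0.46 (adjusted p = 0.514 from limma). For miR-146a-5p the same array moved from 6.28 to 9.84 and the difference was −0.42.

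**Figure D3:**
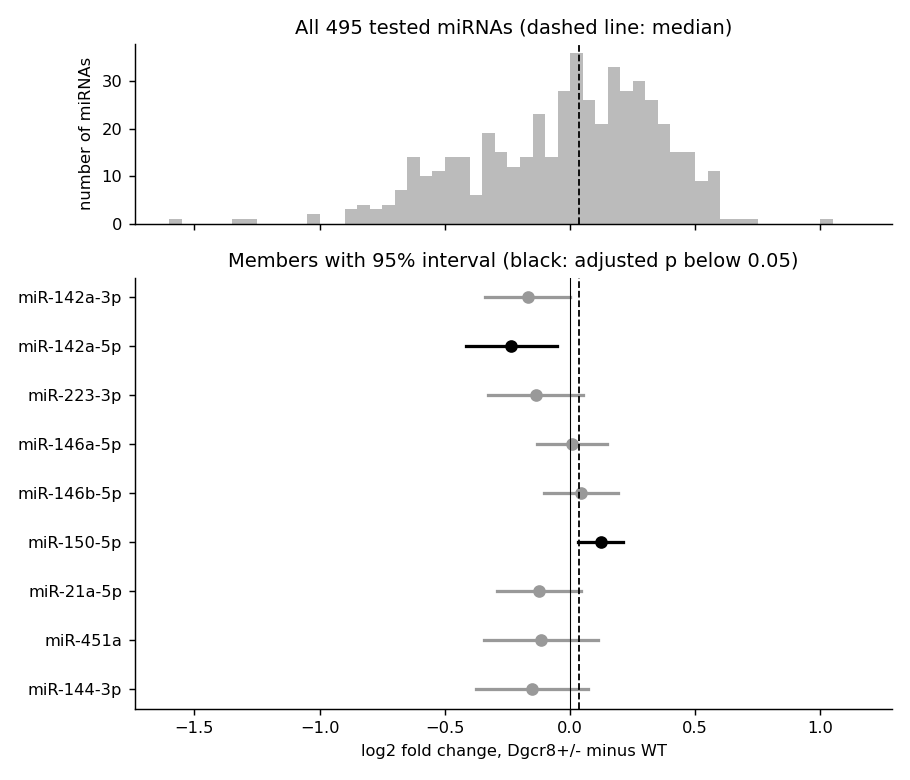
Upper panel, number of miRNAs (y axis) by log2 fold change, Dgcr8+/- minus WT (x axis), for all 495 tested miRNAs under quantile normalization; lower panel, fold change and 95% interval of the 9 tested members, black where the adjusted p was below 0.05. The 9 values lie between −0.23 and 0.12, inside the bulk of the distribution. MiR-150-5p turns negative under some of the scalings named in the text.

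Neither erythroid miRNA passed the test between the genotypes. The signal of mmu-miR-451a was 8.89, 9.22 and 9.67 in WT mice and 8.73, 9.17 and 9.37 in Dgcr8+/- mice. The extremes were WT replicates 3 and 2 and Dgcr8+/- replicates 2 and 5, and 1 Dgcr8+/- mouse lay below every WT mouse. Its mean was 9.27 ± 0.24 (SD, n = 8) in WT and 9.15 ± 0.21 (SD, n = 8) in Dgcr8+/- mice. The difference of −0.12 (SE 0.108, 95% interval −0.34 to 0.11) did not pass (adjusted p = 0.359 from limma; exact permutation test, p = 0.329). It was −0.15 on slide 1, −0.27 on slide 2 and −0.21 in the fit blocked by slide (adjusted p = 0.135 from limma).

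The signal of mmu-miR-144-3p, from the same transcript, was 5.22, 5.61 and 5.80 in WT mice and 5.11, 5.52 and 5.71 in Dgcr8+/- mice. Its mean was 5.58 ± 0.19 (SD, n = 8) in WT and 5.42 ± 0.25 (SD, n = 8) in Dgcr8+/- mice, a difference of −0.15 (SE 0.106, 95% interval −0.38 to 0.070, adjusted p = 0.217 from limma; exact permutation test, p = 0.187). It was −0.11 on slide 1 and −0.29 on slide 2. Both share the Dgcr8 step and differ in the next, Dicer for miR-144 and Ago2 for miR-451a. The signal of miR-144-3p minus that of miR-451a within each array was −3.69 ± 0.17 (SD, n = 8) in WT and −3.73 ± 0.17 (SD, n = 8) in Dgcr8+/- mice. The difference between these means was −0.038, smaller in size than either SD (exact permutation test, p = 0.651). Without normalization this difference was 0.070 (exact permutation test, p = 0.488).

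After quantile normalization the miR-451a difference between the genotypes, −0.12, was smaller than the spread between mice, but this turned with the scaling. With no normalization the difference was −0.62 (adjusted p = 0.00717 from limma) beside an SD between mice of 0.418, and with the labelling spike-ins it was −0.61 (adjusted p = 0.00156 from limma) beside an SD of 0.373. The values that follow are after quantile normalization. On the linear scale, the highest miR-451a signal was 1.72 times the lowest in WT mice and 1.56 times the lowest in Dgcr8+/- mice. The SD of miR-451a between mice of a genotype was 0.227, higher than that of 92% of the tested miRNAs nearest to it in mean signal, taking 50 on each side. That of miR-144-3p was 0.222 and higher than 69% of its neighbours. At the other end, the SD of miR-150-5p was 0.0696, higher than only 5% of its neighbours, and its highest signal was 1.15 times the lowest in WT mice. Without Dgcr8+/- replicate 2 the SD of miR-451a was 0.199 and that of miR-146b-5p fell from 0.138 to 0.0721.

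**Figure D4:**
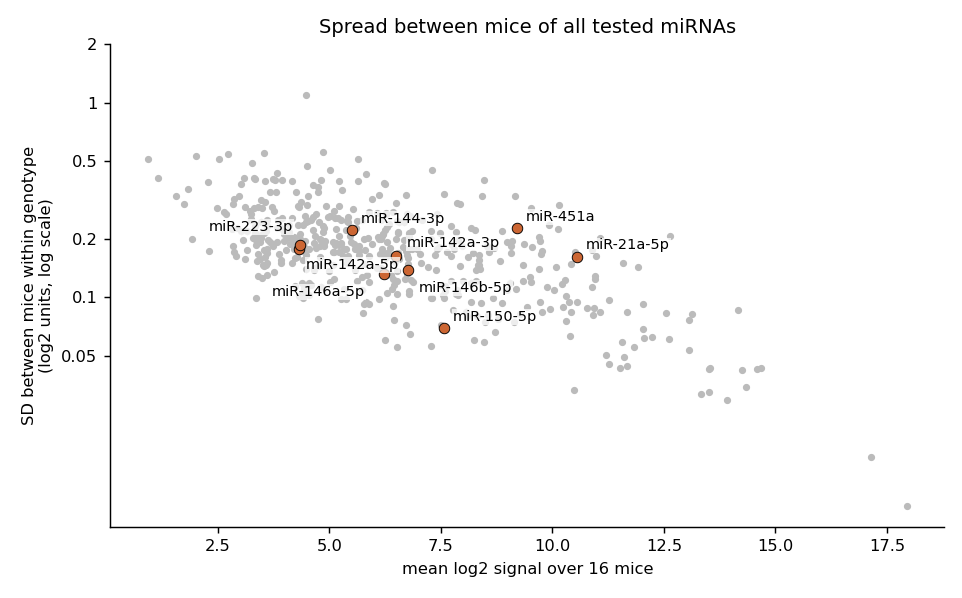
SD between mice within a genotype (y axis, log scale, log2 units) against mean log2 signal over 16 mice (x axis) for the 495 tested miRNAs in grey and the 9 members in colour. MiR-451a lies above most miRNAs of its signal and miR-150-5p below most, with SDs of 0.227 and 0.0696.

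Within each genotype, miR-451a was compared with each of the other 8 members, which made 16 correlations with Benjamini-Hochberg adjustment over them. With miR-144-3p the correlation was 0.72 in WT mice (Spearman's rho 0.81; exact permutation test over 8 mice, p = 0.0459, adjusted p = 0.147). In Dgcr8+/- mice it was 0.74 (rho 0.83; exact permutation test, p = 0.0273, adjusted p = 0.145). Neither passed the adjustment, and without the 2 mice farthest from the median of miR-451a they were 0.57 and 0.73. On the separate slides, as deviations from the genotype means, the correlation was 0.76 on slide 1 and 0.67 on slide 2.

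The one correlation past an adjusted p of 0.05 was that of miR-146b-5p in Dgcr8+/- mice, 0.94 (rho 0.83; exact permutation test, p = 0.0024, adjusted p = 0.0377, and 0.0871 for rho). Dgcr8+/- replicate 2 was the lowest mouse in both miRNAs, and without it the correlation was 0.82 over fewer mice and no longer passed (exact permutation test over 7 mice, p = 0.0357, adjusted p = 0.183). Without the 2 mice farthest from the median, replicates 2 and 5, it was 0.88 (exact permutation test over 6 mice, adjusted p = 0.467). In WT mice the correlation was 0.099. By slide it was 0.69 on slide 1, which holds Dgcr8+/- replicate 2, and 0.23 on slide 2. MiR-146a-5p had 0.80 in Dgcr8+/- mice (rho 0.81; exact permutation test, p = 0.0135, adjusted p = 0.108) and 0.45 in WT mice. The difference between the genotypes was not tested for either.

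None of the correlations of miR-451a with the microglial, myeloid and lymphocyte miRNAs or with miR-21a-5p passed the adjustment after quantile normalization. With no normalization between arrays, 4 of them passed in Dgcr8+/- mice, where the arrays' median signal of the tested miRNAs ranged from 5.27 to 5.91. They were miR-142a-3p with 0.82, miR-223-3p with 0.82, miR-150-5p with 0.95 and miR-21a-5p with 0.88 (exact permutation test, adjusted p = 0.0222, 0.0417, 0.00298 and 0.0222). The part of the array's overall signal in them was not tested. After quantile normalization, miR-142a-3p had a correlation of −0.11 in WT and 0.48 in Dgcr8+/- mice, and miR-142a-5p had 0.094 and 0.13. MiR-150-5p had 0.033 and 0.35, and miR-21a-5p had 0.055 and 0.46. MiR-223-3p had −0.72 in WT mice (rho −0.60; exact permutation test, p = 0.0431, adjusted p = 0.147), which was 0.091 without WT replicates 2 and 3 and so rested on those mice. Of the 16 correlations taken by slide, 0 passed the adjustment. On slide 1, which holds Dgcr8+/- replicate 2, those of miR-146b-5p and miR-144-3p had unadjusted p = 0.0216 and 0.0315 (permutation test over all pairings, adjusted p = 0.248 for both). The mice of a slide were of both genotypes and entered as deviations from the genotype means, so these p are approximate.

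**Figure D5:**
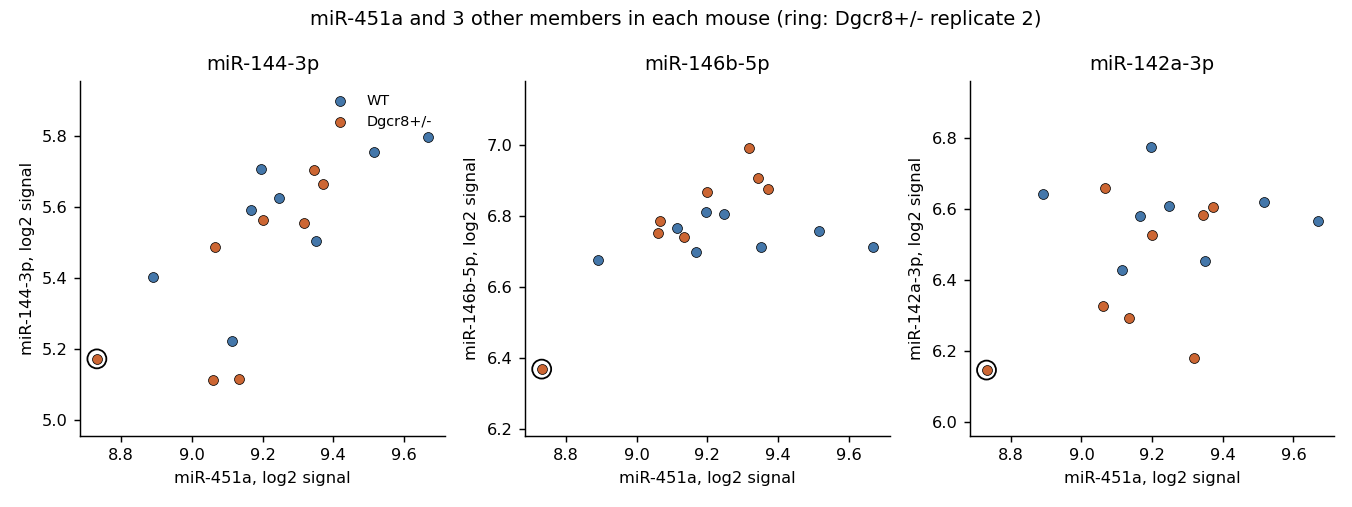
Log2 signal of miR-144-3p, miR-146b-5p and miR-142a-3p (y axes) against that of miR-451a (x axes) in 8 WT mice (blue) and 8 Dgcr8+/- mice (orange), with 1 point per mouse and a ring around Dgcr8+/- replicate 2. The correlations in WT and Dgcr8+/- mice were 0.72 and 0.74 for miR-144-3p, 0.099 and 0.94 for miR-146b-5p, and −0.11 and 0.48 for miR-142a-3p.

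With the level of miR-451a as a covariate in limma, the differences of both called miRNAs stayed close to their values and past the threshold. That of miR-142a-5p was −0.22 (adjusted p = 0.0460 from limma) and that of miR-150-5p was 0.13 (adjusted p = 0.0222 from limma). Their deviations from the genotype means correlated with those of miR-451a by only 0.11 and 0.18, so the covariate could move them little. MiR-451a itself passes the Dgcr8 step, and only quantile-normalized values were fitted. The fit therefore cannot decide the part of blood in these differences. MiR-142a-3p had −0.15 (adjusted p = 0.129 from limma), and miR-144-3p went from −0.15 to −0.073 (adjusted p = 0.457 from limma).

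Ranked over the 494 other tested miRNAs by the correlation of their deviations from the genotype means over 16 mice, those most like miR-451a outside the 10 were miR-346-5p (0.74), miR-486a-5p (0.74), miR-433-3p (0.70), miR-539-5p (0.68) and miR-872-5p (0.64). Of these 5, only miR-486a-5p is an erythroid miRNA by the lists used here, so likeness to miR-451a was not particular to erythroid miRNAs. MiR-144-3p had rank 3 with 0.71. All points share their arrays, and without Dgcr8+/- replicate 2 the ranks of these 5 were 3, 1, 4, 7 and 12, so that miR-486a-5p came first with 0.75 and miR-144-3p second with 0.68. MiR-146a-5p ranked 9 and miR-146b-5p ranked 10, and without that mouse they ranked 6 and 23.

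A list of 21 related miRNAs gives the context of the same hairpins and cell types. Of 11 other arms and paralogues, 0 were tested: 10 were detected on no array, and miR-150-3p was detected on 1 Dgcr8+/- array. Of 10 further immune and erythroid miRNAs, 9 were on the arrays under these names, and 3 were tested. Both products of Mir342, a miRNA of lymphocytes, microglia and neurons, were lower in Dgcr8+/- mice, beside 27.9% lower among all tested miRNAs. The erythroid miRNA miR-486a-5p was tested through its detection in WT mice, and its values are given as a description.

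MiR-486a-5p was at 3.86, 4.04 and 4.25 in WT mice and at 2.46, 3.53 and 3.66 in Dgcr8+/- mice. Every Dgcr8+/- mouse lay below every WT mouse, but the software detected it on 8 WT and only 3 Dgcr8+/- arrays, so the signal was not well above background on the other 5. The measured means were 4.05 in WT and 3.39 in Dgcr8+/- mice, a difference of −0.66, or −0.55 with miR-451a as a covariate. Its size depended on how dim signals were treated, from −0.12 with a normexp background correction to −2.46 in the deposited table of total signal.

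MiR-342-3p had signals of 10.64, 10.68 and 10.81 in WT mice and of 9.73, 10.37 and 10.48 in Dgcr8+/- mice, without overlap. For it and for miR-486a-5p, the share of all tested miRNAs without overlap is not given here. The difference of miR-342-3p was −0.41 (SE 0.084, adjusted p = 0.000626 from limma), and that of miR-342-5p was −0.59 (SE 0.137, adjusted p = 0.00155 from limma). Dgcr8+/- replicate 2 was the lowest mouse for both, and on slide 1, which holds it, the difference of miR-342-3p was −0.67 against −0.30 on slide 2. When outlier-marked spots were kept, miR-342-3p on Dgcr8+/- replicate 3 moved from 10.38 to 13.97 and the difference became 0.081 (adjusted p = 0.902 from limma).

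As sums over the tested members of the marker lists on the log2 scale, the erythroid signal ranged from 9.05 to 9.80 in WT and from 8.87 to 9.50 in Dgcr8+/- mice. That of the microglial and myeloid list ranged from 7.59 to 7.91 in WT and from 7.41 to 7.80 in Dgcr8+/- mice. That of the lymphocyte list ranged from 10.80 to 10.95 in WT and from 10.02 to 10.66 in Dgcr8+/- mice. In this list miR-342-3p is the brighter of 2 miRNAs and also one of microglia and neurons, so the sum is not of lymphocytes alone. The counts of the remaining lists stand beside 28.3% higher and 27.9% lower among all tested miRNAs. Of 4 vessel miRNAs 2 were higher, miR-126a-5p by 0.16 (adjusted p = 0.0193 from limma) and miR-143-3p by 0.22 (adjusted p = 0.0386 from limma). The others did not pass, miR-126a-3p with 0.0036 and miR-145a-5p with 0.16 (adjusted p = 0.956 and 0.131 from limma). Of the 2 choroid plexus miRNAs, miR-204-5p was lower (−0.29, adjusted p = 0.0136 from limma) and miR-211-5p had 0.0021. Of the 3 ciliated-cell miRNAs 0 passed, with differences between 0.15 and 0.35. Of the 2 neuronal miRNAs, miR-128-3p was lower (−0.11, adjusted p = 0.0386 from limma) and miR-124-3p had 0.070, and of the 2 oligodendrocyte miRNAs 0 passed, with 0.13 for miR-219a-5p and −0.11 for miR-338-3p. The part of these other cell types in the differences of miR-142a-5p and miR-150-5p was not tested.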

How the data were processed

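Total RNA of the LV wall of 8 WT and 8 Dgcr8+/- mice was hybridised to Agilent 1-colour mouse miRNA arrays, 1 mouse per array. From Feature Extraction, the authors deposited a background-subtracted signal intensity per spot that was not normalized between arrays, and flags for detection, saturation and outlier spots (0 or 1, other values). The file headers give version 10.7.3.1, and the submitters' processing notes give 10.5.1.1. A deposited table of intensities held the same numbers as the total gene signal on the arrays (largest difference 0) and served as an alternative.

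Spots marked as outliers (2.67% of the spots) were left out, the spots of a probe were averaged, and 4415 probes were quantile-normalized (limma 3.58.1, R 4.3.3), as the study's methods state. Probes of a miRNA (2 for each member, of 15 spots each) were averaged, a floor of 1 was set, and log2 was taken. Of 1881 miRNAs, 495 detected on at least 8 arrays were tested (lmFit, eBayes, Benjamini-Hochberg, threshold 0.05). No miRNA spot was saturated. Single miRNAs were also compared with a 2-sided exact permutation test over 12870 splits, whose smallest p is 0.000155. Correlations with miR-451a used all 40320 pairings of 8 mice. The number of arrays limits the precision.

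The miRNAs named are all 10 members, the 5 tested miRNAs most like miR-451a, and the tested ones of the related and marker lists. Members and lists were chosen with earlier results of these data known. Alternatives covered scaling, background, floor, filter, outlier spots, probe summary, test, slide, replicate number, miR-451a as a covariate and arrays left out. The within-array differences, the single probes, the fits without Dgcr8+/- replicate 2 and WT replicate 6 together, the correlations, ranks and SDs without Dgcr8+/- replicate 2, the miR-144-3p fit with miR-451a as a covariate, the spread of miR-451a under other scalings, and the alternatives for the related miRNAs were chosen after seeing the data. A normexp correction used the median spot signal, as the mean signal is no column of the arrays' spot tables. The fit was also run on simulated data. Their miRNAs were independent of each other, had no slides and had changes larger than those of the members, so the simulation cannot judge the members' calls. Figures were drawn with matplotlib 3.10.9.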

Additional observations from a re-analysis of the deposited data

Results flagged for a closer look

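Among 24 groups of 8 mice (the 9 tested members and the 3 tested related miRNAs in each genotype), 4 had a single mouse whose gap to its nearest neighbour exceeded Dixon's 95% critical value for the share of the group's range, where 1.2 would be found by chance (1 in 20). All 4 were Dgcr8+/- replicate 2 at the low end, so they are not separate events to set against the 1.2. MiR-342-3p and miR-342-5p are also products of the same hairpin, and miR-486a-5p was not detected on this array. MiR-146b-5p was at 6.37 in this mouse and between 6.74 and 6.99 in the other Dgcr8+/- mice. MiR-342-3p was at 9.73 (the others 10.30 to 10.48), miR-342-5p at 3.09 (the others 4.00 to 4.38) and miR-486a-5p at 2.46 (the others 3.36 to 3.66). This array also had the lowest labelling and hybridisation spike-ins, 10.3 and 13.1 on the log2 scale, and the fewest detected miRNAs, 467. Their part in these values was not tested. Without this mouse the difference of miR-146b-5p was 0.10 (adjusted p = 0.0307 from limma), miR-342-3p and miR-342-5p had −0.33 and −0.46 and stayed past the threshold, and miR-486a-5p had −0.53.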

How the results depend on the processing

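Under the alternatives, miR-142a-5p kept a negative difference throughout and passed in 13 of 18 settings, and miR-342-5p passed in all 18. The number of miRNAs lower and higher was 138 and 140 as reported, 293 and 0 with no normalization (0 higher at an unadjusted p below 0.05 from limma, and also with the spike-ins), 261 and 0 with the labelling spike-ins, and 126 and 210 (37.5% lower among the calls, 49.6% as reported) when arrays were scaled to the 75th percentile of probes detected throughout. With each array left out in turn the counts were 133 to 151 lower and 126 to 170 higher, and those of the members 0 to 2 and 1 to 2. Of the members, 9 were lower and 0 higher with no normalization and with the spike-ins. The number lower was 0 with that percentile, the normexp correction, no filter, outlier spots kept and the slide as a block. The number higher was 0 with the 75th percentile of all probes, cyclic loess, the deposited table, outlier spots kept and the slide as a block, and 2 without Dgcr8+/- replicate 2 and WT replicate 6 together. The cause was not tested, except that keeping outlier spots moved single arrays as given above.

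Signs turned as follows. MiR-146a-5p was −0.43 with no normalization, −0.41 with the spike-ins, −0.065 with the 75th percentile of all probes, −0.42 with outlier spots kept, −0.011 with the median of log2 probe values, −0.028 with the slide as a block and −0.018 to 0.037 with each array left out. MiR-146b-5p was −0.43, −0.41 and −0.066 with the first 3 of these settings and −0.016 with the slide as a block. MiR-150-5p was −0.39, −0.38 and −0.030 with the first 3 and −0.46 with outlier spots kept. MiR-223-3p was 0.038 with the percentile of probes detected throughout, and miR-342-3p was 0.081 with outlier spots kept. MiR-144-3p minus miR-451a was 0.070 with no normalization.

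Correlations with miR-451a past the adjusted threshold numbered 1 as reported, 9 with no normalization, 0 without the 2 farthest mice, 0 without Dgcr8+/- replicate 2 and 0 by slide. With no normalization, miR-142a-3p and miR-223-3p had 0.59 and 0.095 in WT mice. Without the 2 farthest mice the values were 0.087, 0.091, −0.12 and −0.35 for miR-142a-3p, miR-223-3p, miR-146b-5p and miR-150-5p in WT, and −0.12 and −0.54 for miR-142a-3p and miR-21a-5p in Dgcr8+/- mice. Without Dgcr8+/- replicate 2, miR-223-3p and miR-21a-5p had −0.29 and −0.23 in Dgcr8+/- mice.

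The labels do not say whether the replicate numbers pair the mice, and no test of a pairing was run. Same-numbered arrays deviated together with correlations of −0.14 to 0.50, above 0.1 in 5 of 8 pairs. Of the WT arrays, 3 of 8 correlated best with their own number. With the replicate number as a block, 140 were lower and 147 higher, and miR-142a-5p and miR-150-5p had adjusted p = 0.0198 and 0.0374 from limma. Signals near background, as for miR-155-5p and miR-486a-5p, have only a loose level. MiR-142a-5p and miR-223-3p were detected on every array but were dim as well. Their WT means of 4.43 and 4.40 were not far above the 4.05 of miR-486a-5p.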
